A study of Homo sapiens with 6 samples.

Results

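Apoptozole (APO), a small molecule described as an inhibitor of the HSP70 chaperones, was compared with its vehicle DMSO across all genes of C4-2B MDVR cells. These cells come from C4-2B, a prostate cancer line of the LNCaP lineage, and are resistant to enzalutamide. Genes were kept where FPKM, a read-pair level corrected for gene length and sequencing depth, was above 1 in at least 1 of the DMSO and APO libraries, which left 13990 of the 60658 genes in the files. The cells received 10 µM APO or DMSO for 48 h. The study's methods say that the line was maintained in medium with 20 µM enzalutamide, an antiandrogen. They do not say whether enzalutamide was present during the 48 h, so no arm is known to have been without it. Each condition was 1 library. No replicate stands behind any difference given here, and no p-value was computed. The titles of the libraries name C4-2B MDVR, whereas other labels call the source LNCaP-C4-2B and the cell type parental. The series also holds VER155008 (VER) in this line and the same 3 conditions in CWR22Rv1 cells, another enzalutamide-resistant prostate cancer line, grown without enzalutamide.

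HSP70 proteins hold unfolded polypeptides in cycles of ATP binding and release, and different members serve the cytosol, the endoplasmic reticulum (ER) and the mitochondria. Unfolded protein in the ER activates the sensors IRE1, PERK and ATF6, which raise the transcription of ER chaperones. PERK and other kinases that sense stress also slow translation through eIF2, while the transcription factors ATF4 and CHOP drive genes of amino acid supply and of cell death. In prostate cancer cells androgen signalling, which depends on chaperones, drives a luminal program of secreted proteases and lipid synthesis.

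A difference is log2(FPKM + 0.1) with APO minus that with DMSO, and a gene is said to have risen or fallen where it was past 2-fold. By this measure 1560 genes (11.2%) rose and 1374 (9.82%) fell, 21.0% of the genes kept. Of the genes past 2-fold 53.2% were higher, a share that was 40.5% after both libraries were rescaled to the same sum and 36.5% after they were rescaled without small structural RNAs and the mitochondrial chromosome. These rescalings moved the median of all genes from 0.01 to -0.14 and -0.19. The 5th and 95th percentiles of the differences were -1.41 and 1.61. Past 4-fold there were 461 genes higher and 326 lower, and past 16-fold 112 and 61. Among the 11869 protein-coding genes kept, 1107 (9.33%) rose and 1012 (8.53%) fell, 17.9% in all. These shares are the background for the counts in the lists of protein-coding genes below.

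**Figure D1:**
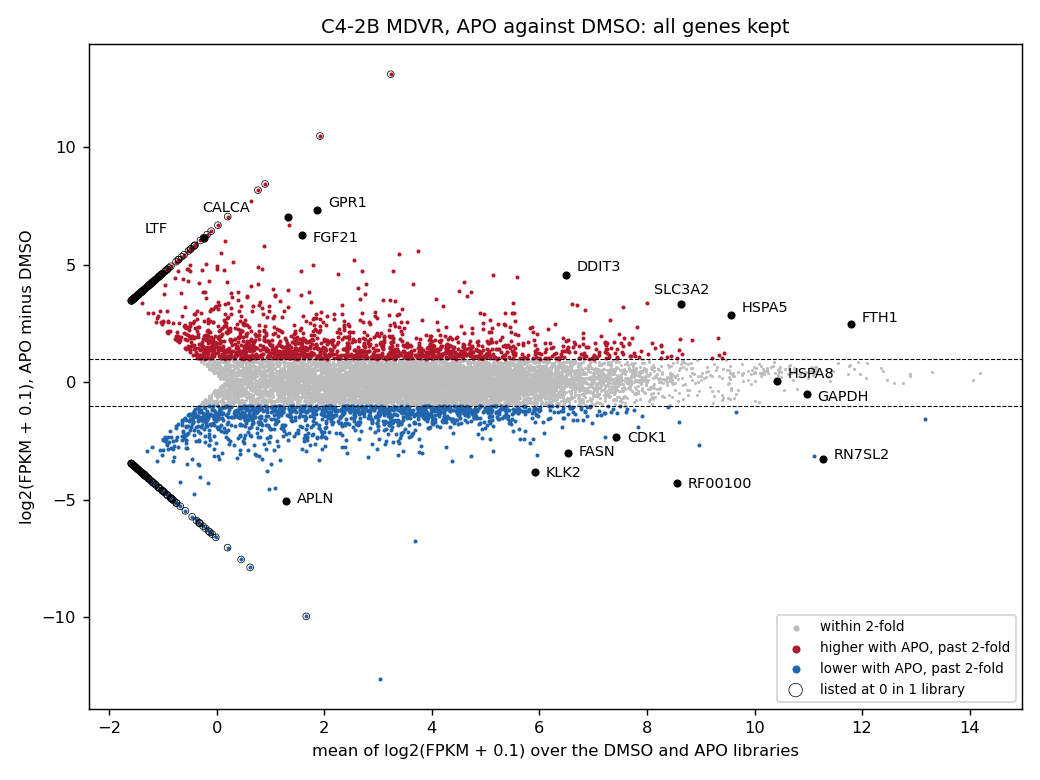
Each point is a gene kept, with its mean level over the DMSO and APO libraries on the horizontal axis and its difference on the vertical axis, both in log2(FPKM + 0.1). Red and blue points are past 2-fold, and the open circles on the oblique lines are genes listed at 0 in 1 library, whose differences follow from the pseudocount of 0.1.

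Among the genes kept differences were widest at low mean level. Of the 707 genes with a mean level under 1 FPKM 45.4% rose and 37.6% fell. The filter required over 1 FPKM in at least 1 library, so these genes had to differ, and genes low in both were left out. Of the 2301 genes between 1 and 3 FPKM 18.2% rose and 13.5% fell. Of the 2563 genes between 30 and 100 FPKM 5.66% rose and 5.58% fell. Among the 959 genes over 100 FPKM 9.18% rose and 3.96% fell. Ratios of the lowest FPKM values between the libraries were most often 1.65, the APO library being the deeper.

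The DMSO library stood apart from the other 5 in small structural RNAs, which lack a poly(A) tail and which selection of polyadenylated RNA mostly removes. Nuclear genes of these types held 2.61% of all FPKM in it, 0.299% with APO, 0.194% with VER and 0.176% to 0.256% in CWR22Rv1 cells. Of the 48 such genes kept, both mitochondrial ribosomal RNAs included, 31 fell, 10 rose and the median was -2.32. RN7SL1 and RN7SL2, copies of the RNA of the signal recognition particle that share reads, had a summed level of 14188 FPKM with DMSO and 1535 with APO. RF00100, the annotation's entry for 7SK RNA, stood at 1667 and 85.5 FPKM. Of the mitochondrial ribosomal RNAs MT-RNR1 stood at 15829 and 5370 FPKM and MT-RNR2 at 16635 and 17598 FPKM (0.08). The part that the gap in small structural RNAs has in the differences of other genes was not tested.

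**Figure D2:**
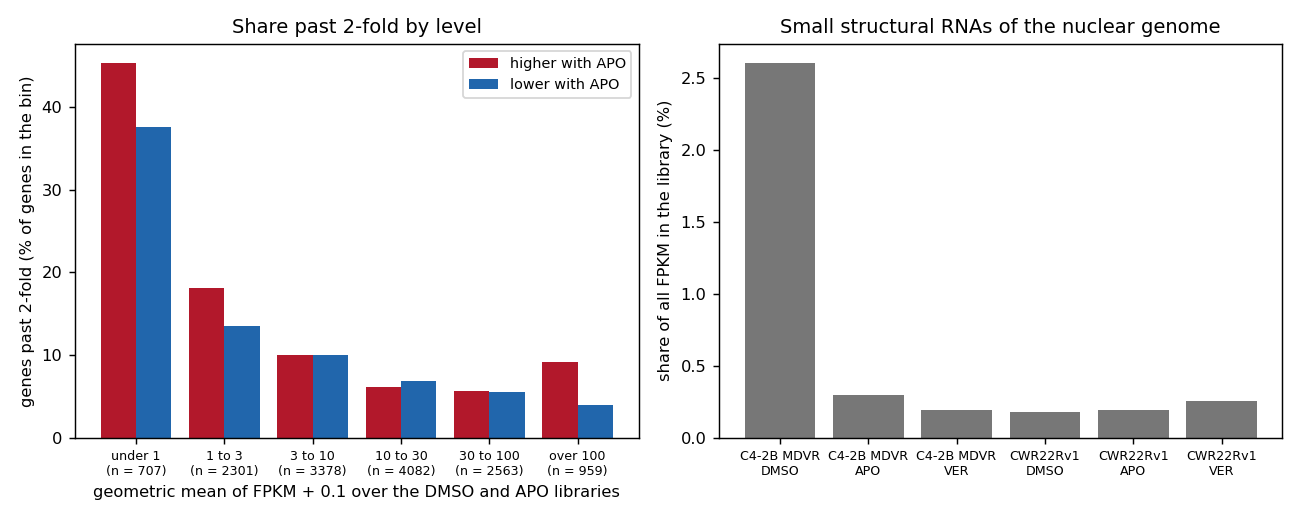
Left, percent of genes in each bin of mean level (geometric mean of FPKM + 0.1) that rose (red) or fell (blue) past 2-fold with APO in C4-2B MDVR. Right, percent of all FPKM held by small structural RNAs of the nuclear genome in each of the 6 libraries, where the C4-2B MDVR DMSO library reached 2.61% and the others stayed at or below 0.299%.

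The extremes of the list were mostly short or noncoding genes. Of the 15 largest falls 13 were listed at 0 with APO, 12 were shorter than 500 bases of exon and 4 were protein-coding, all replication-dependent histone genes. Of the 15 largest rises 10 were listed at 0 with DMSO and 7 were protein-coding. The single largest rise was AL162151.2, a processed pseudogene of 158 bases that was listed at 0 with DMSO and stood at 887 FPKM with APO. The largest fall was the lincRNA entry for RMRP (ENSG00000269900), from 648 to 0.00306 FPKM. It lies over the ribozyme entry for the same RNA (ENSG00000277027), which went from 1252 to 198 FPKM, so reads of these overlapping genes cannot be told apart. Over all genes kept, 126 were listed at 0 with DMSO and 91 with APO, with a median exonic length of 411 bases against 4570.5 for the genes kept. No fold is given for a gene listed at 0.

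Among protein-coding genes the largest rises were from near silence. GPR1, a receptor for chemerin, rose from 0.185 to 46.4 FPKM (log2 7.35). CALCA, which encodes calcitonin and the calcitonin gene-related peptide, rose from 0.119 to 28.5 FPKM (7.03). KLHDC7B, a kelch-domain gene, rose from 0.15 to 25.6 FPKM (6.68). In CWR22Rv1 cells GPR1 and CALCA rose by 4.90 and 5.80, and KLHDC7B was listed at 0 with DMSO and stood at 2.47 FPKM with APO. FGF21, a hormone of fasting and stress, rose from 0.243 to 26.2 FPKM (6.26) and by 1.62 in CWR22Rv1. LTF, the iron-binding protein lactotransferrin, was listed at 0 with DMSO and stood at 7.02 FPKM with APO, and CHST1, a sulfotransferase, was listed at 0 and stood at 6.46 FPKM. Neither passed 2-fold in CWR22Rv1, where LTF was listed at 0 in both libraries. AL049839.2 went from 0.0063 to 22.3 FPKM, but it overlaps the serpin gene SERPINA3 on chromosome 14 and its reads may belong to that gene.

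The largest gain in FPKM among protein-coding genes was that of FTH1, the heavy chain of ferritin, which stores iron. FTH1 (ENSG00000167996; GRCh38 chr11:61959718-61967660) rose from 1504 to 8279 FPKM (2.46), or from 0.223% to 1.11% of all FPKM. SLC3A2, the heavy chain shared by several amino acid transporters, rose from 126 to 1251 FPKM (3.31). HSPA5, the HSP70 of the ER, rose from 278 to 2035 FPKM (2.87). On the other side, the largest losses among protein-coding genes were those of CKB, a creatine kinase, from 1243 to 523 FPKM (-1.25), and of GAPDH, a glycolytic enzyme, from 2374 to 1693 FPKM (-0.49), which is within 2-fold.

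**Figure D3:**
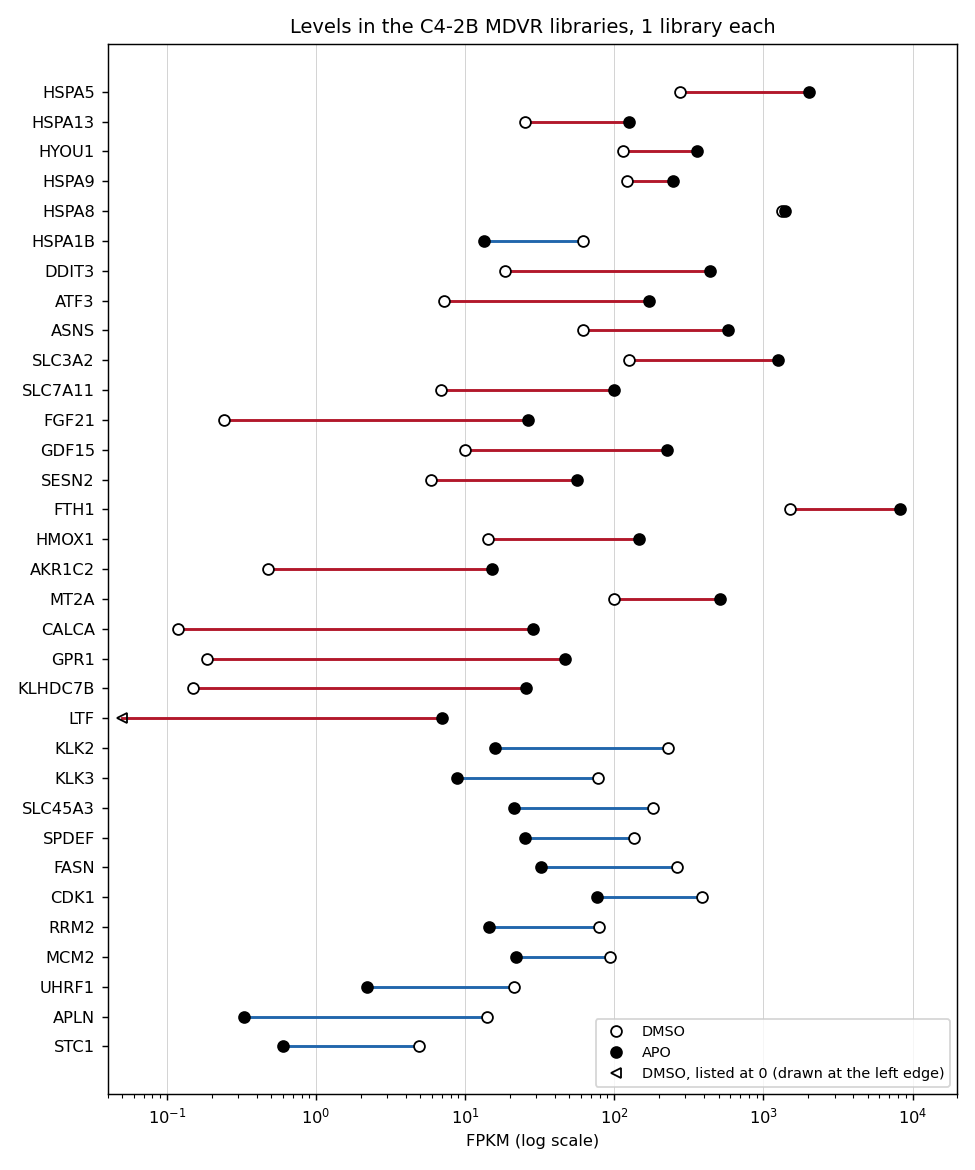
FPKM on a log axis of named genes in the DMSO (open) and APO (filled) libraries of C4-2B MDVR, joined by a red line where APO was higher and a blue line where it was lower. HSPA8 is at nearly the same level in both, and LTF was listed at 0 with DMSO.

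Genes of the HSP70 family and its relatives did not move together. Which of their proteins APO inhibits in these cells was not tested. The ER members rose: besides HSPA5, HSPA13 went from 25.3 to 125 FPKM (2.30) and HYOU1, a large HSP70 relative that helps HSPA5 exchange its nucleotide, from 115 to 359 FPKM (1.64). HSPA9, the mitochondrial HSP70, rose from 121 to 249 FPKM (1.04), a call that ended when both libraries were rescaled to the same sum (0.89). HSPA8, the constitutive cytosolic form, stood at 1332 and 1399 FPKM. HSPA1A and HSPA1B, the heat-inducible pair, share almost all their sequence, and their sum was 62.2 FPKM with DMSO and 13.6 with APO (-2.18). It fell in CWR22Rv1 as well (-1.69). HSPH1, a cytosolic nucleotide exchange factor, fell from 81.7 to 35.3 FPKM (-1.21), while HSPA4 of the same family stood at 126 and 70.1 FPKM (-0.85). Of 30 cytosolic heat shock proteins and co-chaperones 2 rose (6.67%, against 9.33% of protein-coding genes kept) and 6 fell (20.0%, against 8.53%), with a median of -0.52. The risers were the small heat shock proteins HSPB8, from 2.18 to 5.93 FPKM, and CRYAB, from 4.26 to 9.28 FPKM, of which CRYAB was within 2-fold after that rescaling (0.96).

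Sensors and transcription factors of the unfolded protein response (UPR) rose in 9 of 12 genes, against 9.33% of protein-coding genes, none fell, and the median was 1.55. DDIT3, which encodes CHOP, rose from 18.5 to 437 FPKM (4.55), ATF3 from 7.19 to 170 FPKM (4.54) and CEBPB, a partner of both factors, from 33.3 to 184 FPKM (2.46). XBP1, whose spliced mRNA makes the factor downstream of IRE1, rose from 154 to 484 FPKM (1.65). The 24 ER chaperones and folding enzymes were higher in 22 genes, but only 6 passed 2-fold, and the median was 0.68. Their summed level went from 4241 to 8566 FPKM, of which HSPA5 alone gave 278 and 2035. DNAJB9, an ER co-chaperone, rose from 12.9 to 74.1 FPKM (2.51) and ERO1B, an oxidase of ER folding, from 3.69 to 13.4 FPKM (1.84). CALR and P4HB, the most abundant of the list with DMSO, stood within 2-fold at 563 and 835 FPKM and at 519 and 752 FPKM. Genes of ER-associated degradation rose in 9 of 20, led by HERPUD1, a ubiquitin-like membrane protein of that pathway, from 58.2 to 215 FPKM (1.89), with the selenoproteins SELENOK and SELENOS at 1.46 and 1.43.

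The ER stress element, read as CCAAT, 9 bases of any kind and CCACG on either strand, was searched from 250 bases before to 50 after the start of each gene in the RefSeq promoters (GRCh38.p14). It was in 22 of all 27305 promoters (0.0806%), and 9650 of the 11869 protein-coding genes kept could be matched. It was in 6 of 861 genes that rose (0.697%), 0 of 779 that fell and 8 of 8010 within 2-fold (0.0999%), and in 6 of 22 ER chaperones. The matches of HSPA5, XBP1 and of FICD and CRELD2, the last 2 chosen after their values were seen, are shown in capitals to compare spacing and strand. The stretches lie at chr9:125241374-125241433 (minus strand), chr22:28800586-28800645 (minus), chr12:108515099-108515158 (plus) and chr22:49918530-49918589 (plus).
HSPA5: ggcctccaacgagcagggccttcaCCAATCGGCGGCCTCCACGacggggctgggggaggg
XBP1: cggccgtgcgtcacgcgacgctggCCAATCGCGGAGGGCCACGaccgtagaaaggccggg
FICD: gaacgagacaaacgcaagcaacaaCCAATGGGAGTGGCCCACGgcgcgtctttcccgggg
CRELD2: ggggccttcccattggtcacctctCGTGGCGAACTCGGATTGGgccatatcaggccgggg
In CRELD2, a secreted ER protein, the match reads on the other strand. FICD, which modifies HSPA5 with AMP, rose from 7.31 to 29.7 FPKM (2.01), and CRELD2 rose from 79.9 to 171 FPKM (1.10), which was within 2-fold at the same sum (0.95). A match is a string of letters, and whether it is a bound site was not tested.

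The list with the highest median was that of ATF4-CHOP effectors and feedback genes, at 2.64, with 20 of 22 genes up and none down. It holds genes that make amino acids, oppose growth or turn the response off. ASNS, asparagine synthetase, rose from 61.6 to 575 FPKM (3.22), DDIT4, a brake on mTOR, from 79.5 to 817 FPKM (3.36), and SESN2, a leucine sensor, from 5.88 to 56.5 FPKM (3.24). CBS, which makes cystathionine, was the one member lower, at 20.6 and 18.8 FPKM (-0.13). Amino acid transporters rose in 7 of 16 and fell in 2. SLC7A11, the cystine exchanger that pairs with SLC3A2, rose from 6.91 to 100.2 FPKM (3.84) and SLC6A9, a glycine transporter, from 6.93 to 89.0 FPKM (3.66), whereas SLC7A6 fell from 19.4 to 7.06 FPKM (-1.45). Cytosolic tRNA synthetases rose in 7 of 20, with SARS (2.05), CARS (1.73) and GARS (1.67) in front, and had a median of 0.67. None of the 17 mitochondrial tRNA synthetases passed 2-fold, and their median was -0.44. In serine and one-carbon metabolism 7 of 13 rose. ALDH1L2, PSPH, PSAT1 and PHGDH rose by 2.69, 1.74, 1.69 and 1.37, and MTHFD1, a cytosolic folate enzyme, fell from 98.3 to 41.5 FPKM (-1.24).

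The C/EBP-ATF response element was searched as TGATGNAA on both strands of the same promoters. It was in 3.67% of all promoters, in 45 of 861 genes that rose (5.23%), 14 of 779 that fell (1.80%) and 103 of 8010 within 2-fold (1.29%). Among the lists it was in 6 of 16 cytosolic tRNA synthetases, 4 of 15 amino acid transporters and 3 of 19 ATF4-CHOP effectors. Shown are ASNS, FGF21 and ATF3 and the steep risers CALCA and KLHDC7B, which belong to no amino acid list, with the match in capitals. They lie at chr7:97872449-97872498 (minus), chr19:48755448-48755497 (plus), chr1:212565195-212565244 (plus), chr11:14972507-14972556 (minus) and chr22:50545727-50545776 (plus).
ASNS: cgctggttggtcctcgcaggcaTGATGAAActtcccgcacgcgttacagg
FGF21: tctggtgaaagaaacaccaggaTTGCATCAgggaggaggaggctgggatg
ATF3: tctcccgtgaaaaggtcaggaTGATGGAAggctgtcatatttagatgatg
CALCA: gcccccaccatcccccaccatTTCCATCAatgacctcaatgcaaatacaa
KLHDC7B: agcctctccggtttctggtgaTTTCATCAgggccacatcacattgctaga
The letters read TGATG in ASNS and ATF3 and, on the other strand, CATCA in the other 3.

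Genes of oxidative and metal defence were higher. Of 25 NRF2 and glutathione genes 8 rose, none fell, and the median was 0.64. AKR1C2 and AKR1C1, neighbouring and similar aldo-keto reductases that could share reads, rose from 0.474 to 15.2 FPKM (4.74) and from 0.484 to 7.52 FPKM (3.70). HMOX1, which degrades heme, rose from 14.1 to 145 FPKM (3.35), and SQSTM1, a receptor of selective autophagy, from 207 to 744 FPKM (1.85). PRDX1 and GSR, also of this list, were lower within 2-fold at -0.51 and -0.54. Of 10 metallothioneins and zinc transporters 4 rose and 2 fell. The metallothionein MT2A rose from 100.2 to 511 FPKM (2.35), MT1F from 14.8 to 114 FPKM (2.94) and MT1X from 157 to 335 FPKM (1.09), while the zinc transporters SLC30A4 and SLC39A10 fell by 1.26 and 1.05 on the log2 scale. SLC30A2, a zinc transporter outside this list, rose from 0.425 to 8.12 FPKM (3.97). The MT1X call ended when both libraries were rescaled to the same sum (0.94), and that of SLC39A10 with a pseudocount of 1 (-0.96). These metallothioneins are similar in sequence and could share reads.

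Of 32 secreted cytokines and growth factors 10 were kept, of which 7 rose (70.0%, against 9.33% of protein-coding genes kept) and 1 fell. CALCA, at 0.119 FPKM with DMSO, was kept only through its level with APO, so its rise was fixed by the filter. GDF15, a stress hormone, rose from 10.0 to 227 FPKM (4.49), VEGFA, an angiogenic factor, from 87.2 to 261 FPKM (1.58) and IGFBP3, which binds insulin-like growth factors, from 28.1 to 76.3 FPKM (1.44), whereas STC1, a glycoprotein hormone, fell from 4.88 to 0.604 FPKM (-2.82). The following were chosen after their values were seen. S100P, a calcium-binding protein, rose from 1.82 to 92.6 FPKM (5.59), LCN2, which binds bacterial iron carriers, from 1.48 to 68.5 FPKM (5.44), LPO, lactoperoxidase, from 0.209 to 9.19 FPKM (4.91) and PRSS1, cationic trypsinogen, from 1.76 to 49.9 FPKM (4.75). In CWR22Rv1 cells S100P rose as well (3.26), while LCN2 stood at 0.153 and 0.123 FPKM and PRSS1 was listed at 0 in both libraries. LAMP3, a lysosomal membrane protein, rose in both lines by 5.78 and 6.00. SHH, the hedgehog ligand, rose from 0.0798 to 5.52 FPKM (4.97) and by 3.26 in CWR22Rv1. SERPINA3, a secreted protease inhibitor, rose from 0.544 to 9.72 FPKM (3.93).

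Lists of androgen response and prostate lineage were lower. Of 30 androgen-induced genes 17 fell and none rose, with a median of -1.20. KLK2, a prostate protease, fell from 229 to 15.9 FPKM (-3.84), SLC45A3, also known as prostein, from 182 to 21.2 FPKM (-3.09), and STEAP4, a metal reductase, from 6.99 to 0.617 FPKM (-3.31). FKBP5, a co-chaperone of steroid receptors, fell from 139 to 22.9 FPKM (-2.59). Of 15 kallikreins 4 were kept, and all 4 fell (KLK1, KLK2, KLK3 and KLK4). With C19orf48, chosen after its value was seen, they form a run of 5 genes past 2-fold on chromosome 19. The run was counted over protein-coding genes kept, so genes below the filter were skipped. Highest among the androgen-induced genes was TSC22D3, which glucocorticoids also induce, at 21.0 and 40.7 FPKM (0.95). The epithelial factor SPDEF fell from 137 to 25.2 FPKM (-2.44), HOXB13, a homeobox factor, from 98.2 to 24.4 FPKM and FOXA1, which opens chromatin, from 250.3 to 104 FPKM (-1.26). All 8 of the steroid receptors and lineage factors kept were lower and 5 fell. VER gave 46.5 FPKM for KLK2 against the same DMSO library.

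The labelled prostate cell type was checked against marker genes. All 12 luminal markers were above 1 FPKM in both libraries, with a summed level of 1894 FPKM with DMSO and 1572 with APO. None of 3 basal or 4 endothelial markers was above 1 FPKM, with sums of 0.0773 and 0.0245 FPKM and of 0.361 and 0.266 FPKM, and the basal markers TP63 and KRT5 were listed at 0. Of 8 neuroendocrine markers only ENO2 was, at 21.9 and 16.9 FPKM, of sums of 22.2 and 18.0 FPKM, and CHGA and INSM1 were listed at 0 in both. COL1A1 was above 1 FPKM among 6 fibroblast markers, at 6.68 and 10.8 FPKM of 7.34 and 11.3. CD68 was above it among 5 leukocyte markers, at 2.21 and 3.68 FPKM of 2.27 and 3.78. PECAM1 and PTPRC were listed at 0 in both libraries.

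Proliferation genes were lower. In bulk RNA fewer cycling cells and less RNA per cell cannot be told apart. Of 39 genes of DNA replication and nucleotide synthesis 25 fell, none rose, and the median was -1.39. RRM2, a subunit of ribonucleotide reductase, fell from 78.6 to 14.5 FPKM (-2.43), MCM10, an origin firing factor, from 18.7 to 3.40 FPKM (-2.43), and MCM2, of the replicative helicase, from 93.3 to 21.9 FPKM (-2.08). RPA3 was the one member higher, at 43.0 and 52.9 FPKM. All 40 mitosis and spindle checkpoint genes were lower, 14 of them past 2-fold, and the median was -0.91. CDK1, the mitotic kinase, fell from 389 to 76.4 FPKM (-2.35) and KIF20A, a kinesin of cytokinesis, from 30.3 to 8.63 FPKM, while CDC20, which activates the anaphase ubiquitin ligase, stood at 144 and 86.0 FPKM (-0.74). Of 25 G1 and E2F genes 10 fell and 2 rose. E2F8 fell by 2.39 on the log2 scale and CCND1, cyclin D1, from 78.9 to 23.5 FPKM (-1.74). The 2 risers were both CDK inhibitors, CDKN2B from 0.248 to 3.43 FPKM (3.34) and CDKN1A from 54.5 to 232 FPKM (2.09). CDKN2B was kept only through its level with APO, so its rise was fixed by the filter. UHRF1, which guides maintenance DNA methylation, fell from 21.1 to 2.21 FPKM (-3.20) and its partner DNMT1 from 46.2 to 17.0 FPKM (-1.44). MYC fell from 120.5 to 22.6 FPKM (-2.41). TERT, the telomerase reverse transcriptase, chosen after its value was seen, fell from 3.79 to 0.0427 FPKM (-4.77).

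Replication and mitosis genes differed in the promoter letters they hold. An E2F site, TTTCCCGC or TTTGGCGC on either strand, was in 2.31% of all promoters, 49 of 779 genes that fell (6.29%), 22 of 861 that rose (2.56%) and 301 of 8010 within 2-fold (3.76%). It was in 15 of 33 replication genes and 2 of 34 mitosis genes. The cell cycle homology region, TTTGAA on either strand, was in 15.4% of all promoters, in 23 of 34 mitosis genes and in 1 of 33 replication genes. It was in 13.7% of genes that fell, 9.29% that rose and 8.60% within 2-fold. The next stretches show 3 replication or methylation genes with E2F letters in capitals and 4 mitosis genes with TTTGAA in capitals. The values of MCM6, BUB1B, PLK1 and MKI67 were seen before these were chosen. In order they lie at chr20:5126653-5126702 (minus), chr19:4909449-4909498 (plus), chr2:135876514-135876603 (minus), chr10:60778148-60778197 (plus), chr15:40161019-40161068 (plus), chr16:23678837-23678886 (plus) and chr10:128126439-128126488 (minus).
PCNA: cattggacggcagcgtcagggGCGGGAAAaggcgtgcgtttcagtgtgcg
UHRF1: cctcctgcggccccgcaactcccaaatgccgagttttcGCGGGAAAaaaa
MCM6: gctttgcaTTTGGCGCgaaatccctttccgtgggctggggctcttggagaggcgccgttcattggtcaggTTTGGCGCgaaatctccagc
CDK1: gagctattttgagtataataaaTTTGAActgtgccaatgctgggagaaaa
BUB1B: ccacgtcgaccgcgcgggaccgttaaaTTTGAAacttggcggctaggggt
PLK1: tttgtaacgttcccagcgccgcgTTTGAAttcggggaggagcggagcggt
MKI67: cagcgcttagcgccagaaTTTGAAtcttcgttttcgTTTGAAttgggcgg
MCM6, of the replicative helicase, and MKI67, the proliferation antigen Ki-67, hold 2 matches each in these stretches. MCM6 fell from 37.9 to 12.5 FPKM (-1.59) and MKI67 from 23.4 to 6.86 FPKM (-1.75). PCNA, the sliding clamp, fell from 173 to 56.5 FPKM (-1.61), BUB1B, a checkpoint kinase, from 26.3 to 9.60 FPKM (-1.45) and PLK1, a mitotic kinase, by 1.05 on the log2 scale.

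For the other 5 motifs searched in the same promoters the shares were as follows. The antioxidant response element, TGACNNNGC, was in 14.3% of genes that rose, 14.5% that fell and 15.4% within 2-fold. The metal response element, TGCNCNC, was in 61.1%, 63.8% and 63.9%, and in 6 of 7 metallothionein and zinc transporter genes. The CCAAT box, CCAAT, which the ER stress element contains, was in 39.3%, 39.9% and 36.8%, and in 18 of 22 ER chaperones. The heat shock element was in 2 of 861 genes that rose, 3 of 779 that fell and 21 of 8010 within 2-fold, and the full palindromic androgen response element was in none of the 9650 genes, where androgen response elements often lie far from the start.

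Replication-dependent histones, whose mRNAs end in a stem-loop and mostly lack a poly(A) tail, fell in 23 of 45 genes and rose in 3, with a median of -1.35. HIST1H4A, HIST1H3B, HIST2H2AB and HIST1H2AJ stood at 18.6, 8.77, 7.38 and 6.28 FPKM with DMSO and were listed at 0 with APO. The most abundant, HIST1H1C and HIST1H2BK, stood at 61.6 and 73.0 FPKM and at 50.5 and 40.9 FPKM. The summed level of the family was 533 FPKM with DMSO, 367 with APO and 300.2 with VER, and in CWR22Rv1 106 with DMSO and 158 with APO. The DMSO library that held the most small structural RNA thus also held the most histone RNA, and their part in this result was not tested. Small nucleolar RNA host genes fell in 7 of 22 and rose in 1, with a median of -0.57. GAS5, whose spliced RNA is degraded as it is translated, stood at 294 and 571 FPKM (0.96) and SNHG22 fell from 34.1 to 9.11 FPKM (-1.89).

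**Figure D4:**
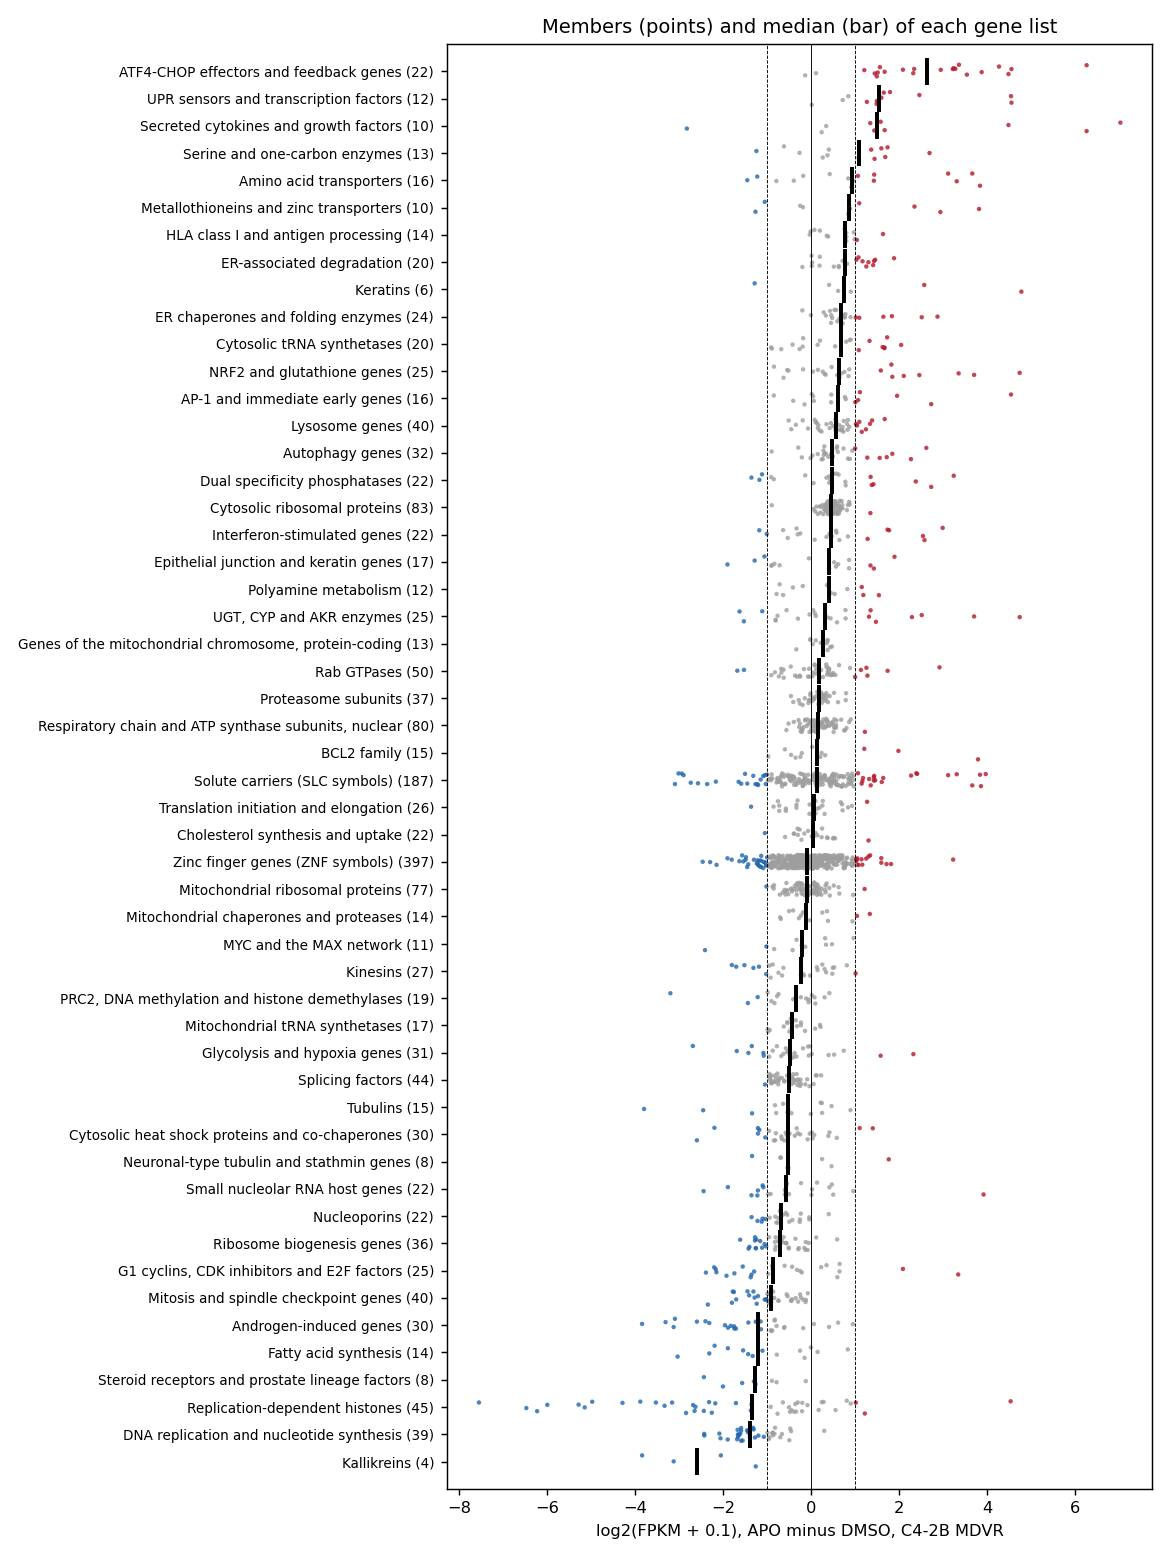
Each row is a gene list with its number of members kept, each point a member's difference in log2(FPKM + 0.1) in C4-2B MDVR, and each black bar the list's median. ATF4-CHOP effectors are at the top with a median of 2.64 and kallikreins at the bottom with -2.59, and the dashed lines mark 2-fold.

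Synthesis of fatty acids and of cholesterol differed. Of 14 fatty acid synthesis genes 8 fell and none rose, with a median of -1.22. FASN, the fatty acid synthase, fell from 264 to 32.1 FPKM (-3.03), ACSL3, which activates fatty acids, from 331 to 66.6 FPKM (-2.31), ELOVL6, an elongase, from 19.4 to 4.16 FPKM (-2.19) and FADS2, a desaturase, from 440.5 to 119 FPKM (-1.89). The 22 genes of cholesterol synthesis and uptake had a median of 0.04, which turned to between -0.11 and -0.16 under the rescalings to the same sum and to -0.03 without the filter at 1 FPKM. SC5D, a late enzyme of the pathway, rose from 43.7 to 108 FPKM (1.31). In CWR22Rv1 cells 10 of 23 fell, and the median was -0.88. Glycolysis and hypoxia genes had a median of -0.48, with 6 of 31 down (19.4%) and 2 up (6.45%). Among all protein-coding genes kept 8.53% fell and 9.33% rose. CA9, a carbonic anhydrase induced by hypoxia, fell from 1.23 to 0.106 FPKM (-2.69), whereas P4HA2, a collagen prolyl hydroxylase, rose from 15.4 to 77.7 FPKM (2.32).

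Lists of the machinery of protein synthesis differed in direction. Cytosolic ribosomal proteins were higher in 82 of 83 genes, with a median of 0.46, but only RPL10L passed 2-fold. Together they held 16.8% of all FPKM with DMSO and 21.5% with APO, and 12.8% and 21.6% in CWR22Rv1. Ribosome biogenesis genes were lower in 34 of 36, and 12 fell. NOP56, a core protein of snoRNA particles, fell from 182 to 59.6 FPKM (-1.61), NCL, nucleolin, from 301 to 126 FPKM (-1.26) and POLR1A, the large subunit of RNA polymerase I, from 13.9 to 5.20 FPKM (-1.40). Splicing factors were lower in 40 of 44 with a median of -0.50, and only PRPF4 fell (-1.05). The 77 mitochondrial ribosomal proteins had a median of -0.10, with 1 up and 1 down. Of 26 translation factors 1 rose and 1 fell, with a median of 0.07. These shares of 3.85% were below the 9.33% and 8.53% of all protein-coding genes kept. EIF4EBP1, a repressor of cap-dependent initiation, rose from 95.5 to 231 FPKM (1.27). EEF2K, which slows elongation, fell from 9.30 to 3.55 FPKM (-1.36). Nuclear-encoded respiratory subunits (80 genes, median 0.16, -0.01 after rescaling without the mitochondrial chromosome) and proteasome subunits (37 genes, 0.18, -0.02 after rescaling without structural RNAs and that chromosome) stayed within 2-fold except NDUFA4L2, which rose from 1.71 to 4.12 FPKM (1.22). The 13 proteins of the mitochondrial chromosome had a median of 0.28, with none past 2-fold, and that chromosome held 15.5% of all FPKM with DMSO and 14.8% with APO. Of the 14 mitochondrial chaperones and proteases 8 were lower and 2 rose (14.3%, against 9.33% of protein-coding genes kept), with a median of -0.11. The risers were HSPA9, whose call ended at the same sum (0.89), and LONP1, the matrix protease, from 56.5 to 143 FPKM (1.33).

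Genes of degradation and death rose in part. Lysosome genes were higher in 35 of 40, 8 rose, and the median was 0.57. NEU1, a sialidase, rose from 28.7 to 91.8 FPKM (1.67), NPC1, which exports cholesterol, from 19.1 to 50.2 FPKM (1.39) and PSAP, the precursor of the saposins, from 434 to 965 FPKM (1.15). Of 32 autophagy genes 7 rose and none fell, with MAP1LC3B, which coats autophagosomes, going from 18.6 to 115 FPKM (2.62) and OPTN, a receptor of selective autophagy, from 2.10 to 10.5 FPKM (2.27). TFEB, a transcription factor of lysosome genes, stood at 6.49 and 3.44 FPKM (-0.90). In the BCL2 family 3 of 15 rose (20.0%), against 9.33% of all protein-coding genes kept, and the 3 were BH3-only genes that promote death. They were HRK, from 0.0696 to 2.25 FPKM (3.79), PMAIP1, from 4.72 to 19.0 FPKM (1.98), and BBC3, from 1.87 to 4.45 FPKM (1.21). HRK was kept only through its level with APO, so its rise was fixed by the filter. The BBC3 call ended with a pseudocount of 1 (0.93). BCL2L11, another BH3-only gene, stood at 16.8 and 8.50 FPKM (-0.97). The family's median was 0.14 and turned to between -0.01 and -0.06 under the rescalings to the same sum.

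Of 22 interferon-stimulated genes 6 rose (27.3%) and 2 fell (9.09%), with a median of 0.45. Among all protein-coding genes kept 9.33% rose and 8.53% fell, so the share that fell was near that of all. ISG20, an exonuclease, rose from 2.64 to 21.6 FPKM (2.99) and IRF1, a transcription factor, from 1.53 to 9.39 FPKM (2.54), whereas IFITM1, a membrane protein that blocks virus entry, fell from 5.17 to 2.23 FPKM (-1.18). Of 14 genes of class I antigen presentation 12 were higher and 2 rose (14.3%). HLA-B rose from 41.0 to 84.4 FPKM (1.04), a call that ended at the same sum (0.89), ERAP1, which trims peptides, rose from 2.41 to 7.69 FPKM (1.63), and HLA-C stood at 0.76. The class I genes are similar in sequence and could share reads. Of 17 epithelial junction and keratin genes 3 rose and 3 fell. CLDN7, a claudin, rose from 333 to 1240 FPKM (1.90), OCLN, occludin, from 21.1 to 56.7 FPKM (1.43) and CDH1, E-cadherin, from 148 to 378 FPKM (1.35), while SNAI1, a repressor of CDH1, fell from 5.70 to 1.45 FPKM (-1.90).

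The same comparison in CWR22Rv1 cells shares no library with that in C4-2B MDVR. Of 14772 genes kept there 1597 (10.8%) rose and 1938 (13.1%) fell. Among the 12645 genes kept in both lines 558 rose in both, which is 47.1% of the 1184 that rose in C4-2B MDVR and 46.5% of the 1200 that rose in CWR22Rv1, where 9.49% of all these genes rose. In both lines 532 fell, 48.4% of 1099 and 39.7% of 1339, against a background of 10.6%. Opposite moves past 2-fold were seen in 44 genes that rose in C4-2B MDVR and fell in CWR22Rv1 and in 30 of the other kind. The Spearman correlation of the differences across these 12645 genes, which are not independent, was 0.577.

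List medians lay near each other in the lines for some lists and apart for others, and none of the gaps was tested. ATF4-CHOP effectors had medians of 2.64 in C4-2B MDVR and 1.97 in CWR22Rv1, and DNA replication genes -1.39 and -1.25. ER chaperones had 6 up and none down in C4-2B MDVR but 1 up and 6 down in CWR22Rv1, with medians of 0.68 and -0.16. HSPA5 was at 437 and 727 FPKM in CWR22Rv1 (0.73), within 2-fold, and CALR fell there from 1153 to 474 FPKM (-1.28). HERPUD1 and DNAJB9 rose in both lines, in CWR22Rv1 from 91.1 to 182 FPKM, just past 2-fold, and by 2.29. The lineage factors HOXB13, SPDEF and FOXA1 stood at -0.64, -0.90 and -0.25 in CWR22Rv1, so none of them passed 2-fold there, while KLK2 (-3.38) and SLC45A3 (-2.65) fell. APLN, the peptide apelin, fell in both, to 0.327 FPKM (-5.05) in C4-2B MDVR and to 56.4 FPKM (-2.67) in CWR22Rv1.

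**Figure D5:**
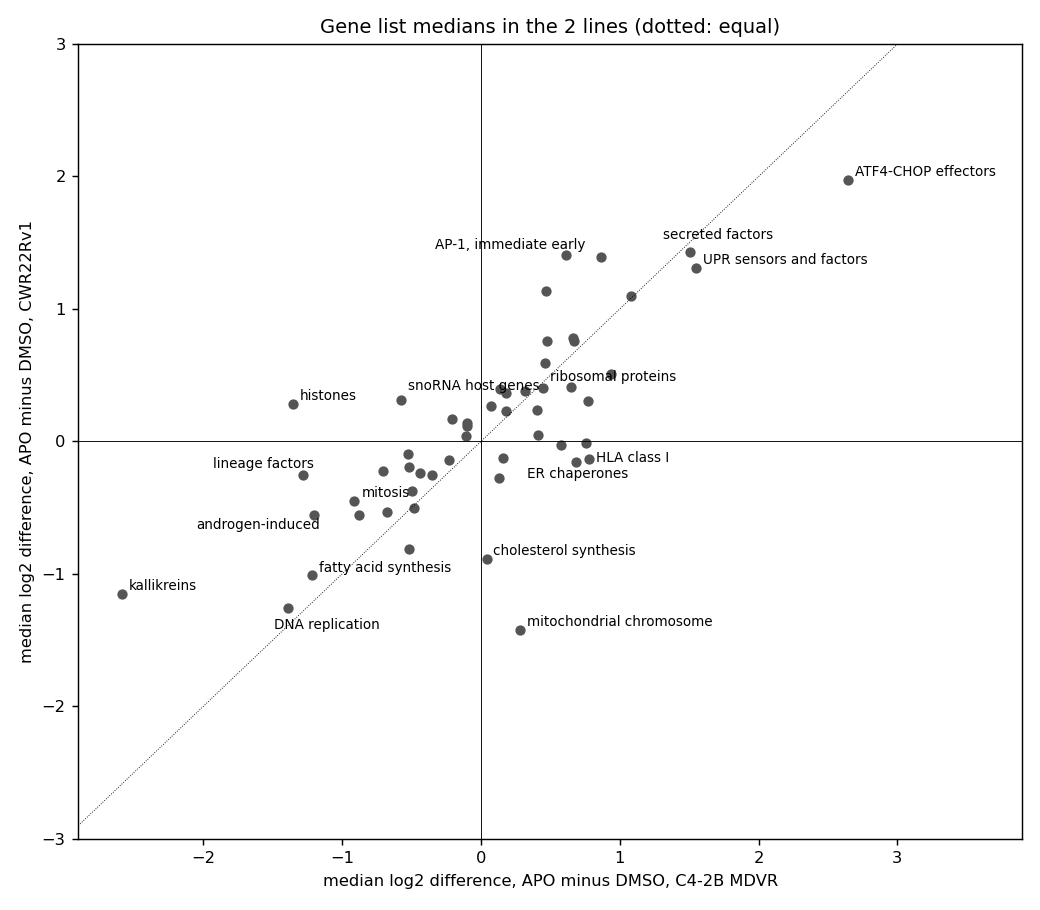
Each point is a gene list, with its median difference in log2(FPKM + 0.1) for APO minus DMSO in C4-2B MDVR on the horizontal and in CWR22Rv1 on the vertical axis, 1 library per condition. Genes of the mitochondrial chromosome (0.28 and -1.43) and histones (-1.35 and 0.28) lie far from the dotted line of equal medians.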

How the data were processed

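RNA of 6 conditions was sequenced, 1 library each, and the DMSO and APO libraries of C4-2B MDVR cells were compared. The authors deposited FPKM values per Ensembl gene made from paired-end reads. The submitters' processing notes name HISAT, Cufflinks, Cuffnorm and GRCh38, and the study's methods give HISAT as the aligner in a TopHat and Cufflinks pipeline and also name StringTie. Tool versions and the annotation release are not given in the sources used here. The labels name a stranded kit with poly(A) selection, whereas the study's methods name a TruSeq kit. The study's methods give 1 approximate read number for all samples, but the deposited FPKM carry no total per library, so the depth of each library is unknown beyond the ratio of low values, no count test was made, and no interval or floor is given.

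Identifiers were matched to GENCODE 29 on GRCh38 (57047 of 60658). Genes above 1 FPKM in at least 1 of the libraries compared were kept, a pseudocount of 0.1 was added, which understates the change of low genes, and genes past an absolute log2 difference of 1 were called. With 1 library a side there was no test. Of 53 gene lists and symbol families, restricted to protein-coding genes except the snoRNA hosts, counts and medians are given. The members and lists were chosen with earlier results of these data known. Genes named are the 15 largest rises and falls, the 10 largest at 10 FPKM or more, the 8 largest gains and losses in FPKM, in each list the 3 largest rises and falls and the 2 highest levels with DMSO, and the HSP70 genes. Genes without a symbol were passed over, some genes are not reported here, and others are said to have been chosen after their values were seen. Promoters and their coordinates are from RefSeq (GRCh38.p14), gene coordinates from GENCODE 29. The alternatives were pseudocounts of 0.01 and 1, 3 filters, 3 rescalings, thresholds of 1.2-fold and 1.5-fold and protein-coding genes alone. A minimum exonic length of 500 bases and a rescaling without structural RNAs were added after the data were seen. The steps were tested on simulated data. Python 3.11.15, pandas 2.3.3, numpy 2.4.6 and matplotlib 3.10.9 were used.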

Additional observations from a re-analysis of the deposited data

Results flagged for a closer look

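With APO 3 lists had medians past 1.2-fold in opposite directions in C4-2B MDVR and CWR22Rv1, and 3 named genes were past 2-fold in opposite directions. Other lists and genes of opposite sign were under these limits in at least 1 of the lines. Each line had 1 library per condition, and the differences between lines were not tested. The 13 proteins of the mitochondrial chromosome had a median of 0.28 in C4-2B MDVR and -1.43 in CWR22Rv1, where that chromosome held 25.7% of all FPKM with DMSO, 10.4% with APO and 25.7% with VER. Replication-dependent histones had medians of -1.35 and 0.28, and small nucleolar RNA host genes of -0.57 and 0.31. The ribozyme entry for RMRP was at -2.66 in C4-2B MDVR and 2.28 in CWR22Rv1, there from 24.3 to 118 FPKM. The lincRNA entry that lies over it went from 57.9 to 0.00107 FPKM in CWR22Rv1 (-9.16). Reads of the overlapping entries cannot be told apart, so an opposite move of the RNA itself cannot be read from 1 entry. AC244669.1, a pseudogene on chromosome 1, was at -6.75 and 9.22, with 133 and 1.14 FPKM in the first line and 0.396 and 296 FPKM in the second. UGT2B11, a glucuronosyltransferase that resembles its neighbours in sequence, fell by 1.63 on the log2 scale in C4-2B MDVR, from 17.4 to 5.58 FPKM, and was at 1.15 in CWR22Rv1, with 0.559 and 1.36 FPKM.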

How the results depend on the processing

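No paired analysis was possible because each condition had 1 library. Without a replicate and without read totals, a difference cannot be set against the spread between cultures, and genes near 1 FPKM are the least certain. In C4-2B MDVR 2934 genes passed 2-fold, 1560 up and 1374 down, and 558 and 532 were up and down in both lines. Over genes above 0.1 FPKM in 1 library, or with no filter, these numbers were 5777, 3098, 2679, 947 and 951, since more genes were counted. With FPKM above 1 in both libraries they were 1870, 961, 909, 354 and 351. At 1.2-fold they were 9851, 5067, 4784, 2814 and 2745, and at 1.5-fold 5940, 3042, 2898, 1357 and 1381. A pseudocount of 1 left 330 genes down in both lines. Rescaling to the same sum without the mitochondrial chromosome gave 826 down in both lines, and also without structural RNAs 2147 down in C4-2B MDVR and 867 in both, since it lowered all genes. The cholesterol list turned to -0.0264 without the filter or with that at 0.1 FPKM, where the cause was not tested. The other turns came with rescaling, which moved all genes together. With the same sum (TPM) cholesterol genes were at -0.109, the BCL2 family at -0.00934, translation factors at -0.0754 and solute carriers at -0.0229. Without the mitochondrial chromosome they were at -0.122, -0.0221, -0.0882 and -0.0453, with nuclear respiratory subunits at -0.00722. Without structural RNAs as well they were at -0.162, -0.0622, -0.128, -0.0853 and -0.0473, with proteasome subunits at -0.0203 and Rab GTPases at -0.00583. No named gene past 2-fold turned its sign under these alternatives. Of the 209 named genes past 2-fold, 21 lost the call with a pseudocount of 1, and 9, 11 and 12 under the rescalings to the same sum, without the mitochondrial chromosome and also without structural RNAs, while 14, 19 and 23 others gained it under these rescalings. Among these, the calls of PSAP (0.99 without the mitochondrial chromosome), BBC3 (0.93 with a pseudocount of 1), IFITM1 (-0.93) and NDUFA4L2 (0.92) ended, and PRPF4 was at the limit. Differences moved by over 0.5 in 34 and 61 named genes with pseudocounts of 0.01 and 1. The median-ratio rescaling ended no named call, and of the list medians recomputed 543 neither turned, crossed 2-fold nor moved by over 0.5, 21 crossed 2-fold or moved by over 0.5, and 18 turned.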

Other observations

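Genes past 2-fold were also neighbours in places. Counting the protein-coding genes kept in genome order, 41 runs of at least 3 had all members past 2-fold in the same direction. The longest was a run of 6 histone genes on chromosome 6, from HIST1H2AL to HIST1H2BO, all down. A run of 5 on chromosome 14, all up, held IFI27L2, PPP4R4, SERPINA1, AL049839.2 and SERPINA3, of which AL049839.2 overlaps SERPINA3. Other runs that were up held the metallothioneins MT2A, MT1F, MT1G and MT1X on chromosome 16, the aldo-keto reductases AKR1C1, AKR1C2 and AKR1C3 on chromosome 10, and FADS3, RAB3IL1, BEST1 and FTH1 on chromosome 11. How many such runs the order of genes alone gives was not tested.

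Noncoding genes differed more widely than protein-coding ones. Of 504 lincRNAs kept 130 (25.8%) rose and 77 (15.3%) fell, with a median of 0.43, and of 634 antisense genes 146 rose and 93 fell, with a median of 0.25, against a median of -0.003 for protein-coding genes. Types were not compared at equal level. LINC02485, a lincRNA on chromosome 4, was listed at 0 with DMSO in both lines and stood at 13.1 FPKM with APO in C4-2B MDVR and 3.05 FPKM in CWR22Rv1. By exonic length the fifth of protein-coding genes with the shortest transcripts had a median of 0.13 and the fifth with the longest -0.08.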
